A study of Mus musculus with 36 samples.

Results

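Macrophages are phagocytes of the innate immune system that are seeded into embryonic tissues early in development, and they can be carried over when whole embryos are dispersed to make fibroblast cultures. They depend on signalling through the growth factor receptor Csf1r and on the transcription factor PU.1, which is encoded by Spi1, and they carry the pan-leukocyte phosphatase Ptprc (CD45) and the surface receptor Adgre1 (F4/80). Glucocorticoids act on them through the glucocorticoid receptor (GR, encoded by Nr3c1), and are known to favour uptake of dying cells and to dampen inflammatory genes.

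The counts of 36 macrophage genes, chosen by name from a table of 55487 genes, were followed in cultures of mouse embryonic fibroblasts (MEFs). These primary cells came from mid-gestation embryos after the head and organs had been taken out, and each sample is labelled FVB/NJ for its strain. The study's methods place its GR+/- mice on a 129/SvJ background instead, so that for GRko/ko a difference in strain and the genotype cannot be told apart. There were 5 genotypes. GRwt/wt carried the wild-type receptor, GRD/D a point mutation in its DNA-binding domain, GRL/L a point mutation in its ligand-binding domain, GRD+L/D+L both mutations and GRko/ko no functional receptor. Each culture received vehicle or 1 µM dexamethasone (Dex), a synthetic GR agonist, for 5 h. RNA-seq was performed in 2 runs, with 24 libraries in run 1 (GRwt/wt replicates 1 to 3, GRD/D, GRD+L/D+L and GRko/ko) and 12 in run 2 (GRL/L and GRwt/wt replicates 4 to 6), so that each of the 12 groups had 3 libraries, described as cultures from different mice. The library totals ranged from 15280166 to 28662608 counts.

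The cultures matched their labels as fibroblasts, because 8 fibroblast markers such as Col1a1 and Pdgfra together took 31660 to 50770 CPM in every library (CPM is a gene's count scaled to the library total). Markers of other blood cells were close to absent, with summed levels of at most 0.42 CPM for 6 lymphocyte genes, 0.301 CPM for 6 erythroid genes, 2.36 CPM for 7 mast cell genes and 3.7 CPM for 7 neutrophil genes. Genes of other tissues were read at low to moderate summed levels, at most 8.96 CPM for 5 dendritic cell genes, 19 for 6 endothelial, 31.3 for 5 epithelial, 69.2 for 4 glial and melanocyte and 134.1 for 4 muscle genes, and 83.7 to 328.6 CPM for 6 osteoclast genes, and their part in the results was not tested. Of 5 well known glucocorticoid targets, all 5 rose with Dex in GRwt/wt and GRL/L, 2 in GRD/D and GRD+L/D+L, and none in GRko/ko. Nr3c1 lay between 15.9 and 20.5 CPM in the 6 GRko/ko libraries and between 44.1 and 116 CPM in all others.

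As a set, the 36 genes were detected in every library, but at levels that differed by a factor of 82.1 between the genotypes of run 1. Summed over the genes, the vehicle libraries held 73.7, 65.1 and 58.3 CPM in GRD+L/D+L and 356.9, 573.9 and 321.7 CPM in run 1 GRwt/wt. GRD/D held 1216, 1272 and 1165 CPM, and GRko/ko 5562, 5131 and 5488 CPM. In run 2, the GRwt/wt vehicle libraries held 951.2, 940.4 and 876.5 CPM and the GRL/L ones 1939, 1630 and 1661 CPM. Within each run the groups did not overlap, and GRwt/wt vehicle replicate 2 stood above its 2 companions. A subset of 15 defining markers, those with the least expression outside macrophages and their relatives, followed the same order, from 15.6 to 19.1 CPM in GRD+L/D+L up to 2146 to 2264 CPM in GRko/ko. In bulk RNA, fewer macrophages and less RNA per macrophage cannot be told apart.

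**Figure D1:**
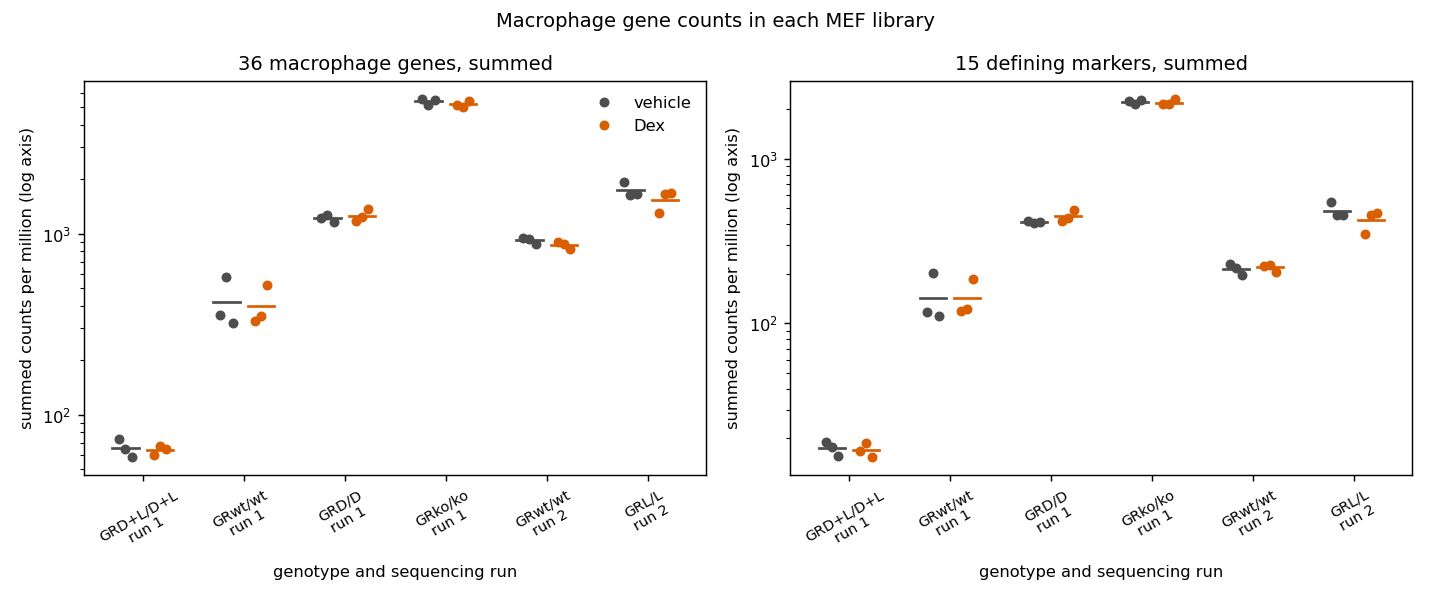
Summed CPM (log axis) of the 36 macrophage genes (left) and of the 15 defining markers among them (right) in each library, by genotype and sequencing run. Points are libraries, 3 a group, grey for vehicle and orange for Dex, and bars are group means. The GRko/ko libraries lie highest and the GRD+L/D+L libraries lowest, and the Dex points fall in or near the range of the vehicle points.

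The order was shared by nearly all genes. The mean vehicle level was highest in GRko/ko for 34 of 36 genes and lowest in GRD+L/D+L for all 36. The sequence GRko/ko, GRL/L, GRD/D, run 2 GRwt/wt, run 1 GRwt/wt and GRD+L/D+L held for 21 genes, and 10 more differed from it only in that run 2 GRwt/wt came before GRD/D. The 5 others were Ccl3, which was highest in GRL/L, Cybb, C1qc, Clec7a and Cd163. Cd163, a haemoglobin scavenger receptor, had fewer than 10 counts in every library and was left out of all tests by the filter on low counts, while the other 35 were tested. Only 14 genes had at least 10 counts in every library, and 11 had fewer than 10 counts in all 3 GRD+L/D+L vehicle libraries.

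**Figure D2:**
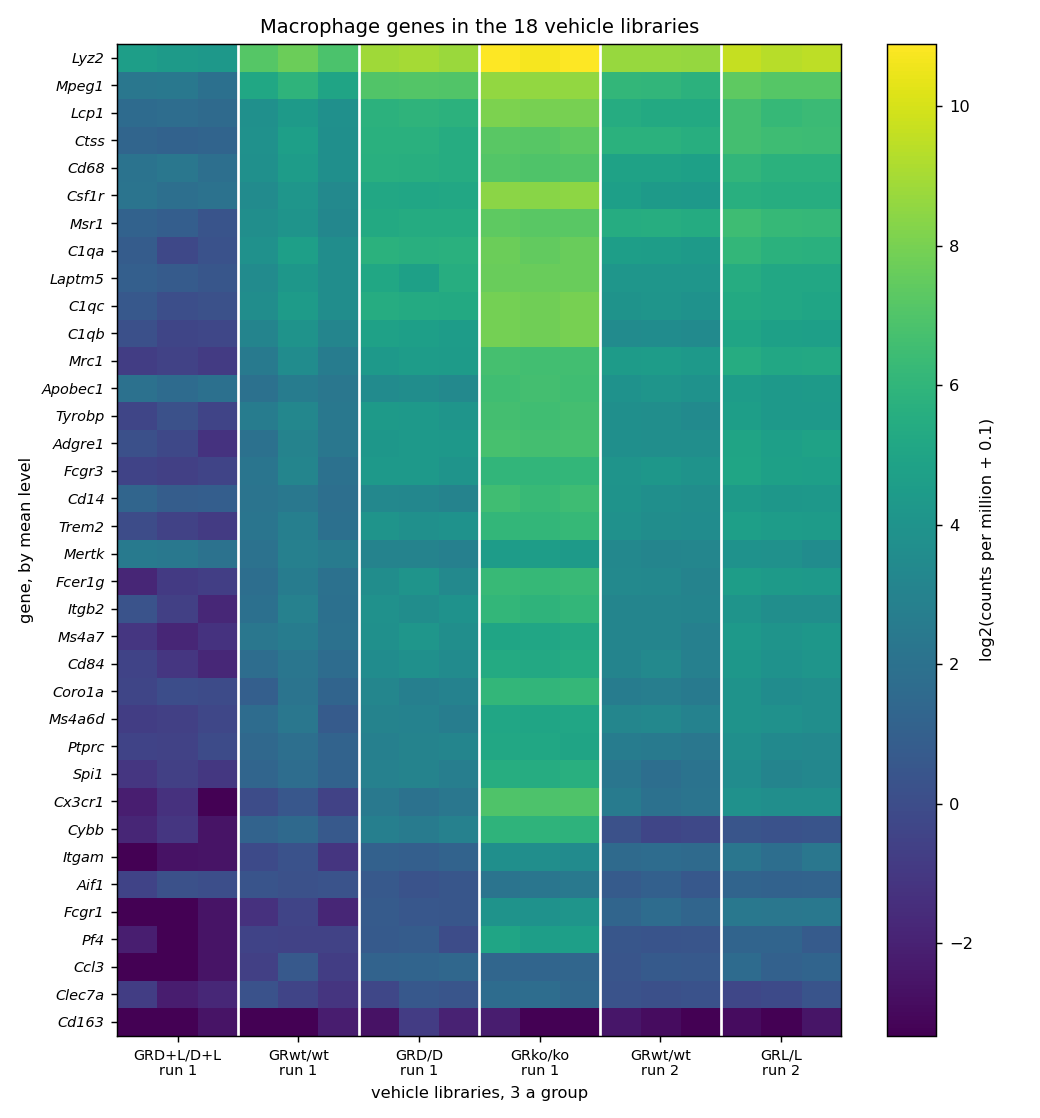
Level of each macrophage gene as log2(CPM + 0.1) in the 18 vehicle libraries, with genes ordered by their mean and white lines between groups of 3 libraries. The GRko/ko columns are the brightest and the GRD+L/D+L columns the darkest in almost every row, and Cd163 is dark throughout.

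The genes that define the lineage showed this pattern at each level of abundance. Lyz2, lysozyme of macrophages and neutrophils, was the most abundant gene of the set per transcript length in GRko/ko, at 1372 CPM per kilobase of exons against 220.4 for C1qb, the next in line. Its vehicle levels were 25.1, 21 and 18.9 CPM in GRD+L/D+L, 138.9, 211.2 and 118.2 in run 1 GRwt/wt, 458.7, 512.2 and 434.8 in GRD/D and 1901, 1663 and 1853 in GRko/ko. In run 2 they were 416.4, 415.2 and 400.6 CPM in GRwt/wt and 795.4, 672 and 702 in GRL/L. With Dex, Lyz2 stood at 114.2, 130.2 and 192.3 CPM in run 1 GRwt/wt, 377, 348.3 and 332.7 in run 2 GRwt/wt, 435.2, 455.5 and 528.3 in GRD/D, 548, 684.4 and 680.4 in GRL/L, 17.2, 20.6 and 20.6 in GRD+L/D+L and 1711, 1539 and 1733 in GRko/ko. The genotypes of one run thus never overlapped, whereas the Dex and vehicle ranges overlapped in every group except run 2 GRwt/wt. How reads shared by Lyz2 and its close paralog Lyz1 were counted is not given in the sources used here, so its level is uncertain by that share.

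Csf1r, the receptor for the macrophage growth factor, measured 4.37, 3.61 and 3.99 CPM in vehicle-treated GRD+L/D+L, 11.4, 17.5 and 10.4 in run 1 GRwt/wt, 37.2, 33.8 and 37.1 in GRD/D and 344.8, 334.2 and 350.6 in GRko/ko, against 25.8, 21.6 and 20.2 in run 2 GRwt/wt and 50.9, 46.8 and 45.5 in GRL/L. Its exons share 873 bases with Hmgxb3 on the opposite strand, and the strand setting of the counting is not given in the sources used here, so the reads of the pair cannot be told apart there. With Dex it measured 10.2, 13.4 and 15.5 CPM in run 1 GRwt/wt, 18, 18.7 and 18.2 in run 2 GRwt/wt, 35.5, 35.3 and 38.2 in GRD/D, 30.6, 38.2 and 40.4 in GRL/L, 3.64, 3.8 and 2.79 in GRD+L/D+L and 328.8, 314.3 and 337.2 in GRko/ko. Vehicle and Dex libraries were therefore set apart in both genotypes of run 2 but not in GRwt/wt of run 1 or in GRD/D.

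Adgre1 was at 1.01, 0.734 and 0.327 CPM in vehicle-treated GRD+L/D+L, 3.85, 8.25 and 4.82 in run 1 GRwt/wt, 18, 19.4 and 18.7 in GRD/D and 108.4, 100.1 and 105.3 in GRko/ko, and at 13.4, 12.9 and 12.8 in run 2 GRwt/wt and 31.6, 25.6 and 29.5 in GRL/L. With Dex it was at 0.537, 0.543 and 0.547 CPM in GRD+L/D+L, 4.06, 4.3 and 8.16 in run 1 GRwt/wt, 18, 17.6 and 19.9 in GRD/D, 101.6, 100 and 122.4 in GRko/ko, 11.3, 12 and 11.8 in run 2 GRwt/wt and 18.4, 24.3 and 24.8 in GRL/L. The groups of each run were again apart, and GRwt/wt vehicle replicate 2 and Dex replicate 3 were the high libraries of run 1 GRwt/wt, as they were for the summed level.

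Ptprc measured 0.633, 0.611 and 0.851 CPM in vehicle-treated GRD+L/D+L, 2.73, 3.6 and 2.2 in run 1 GRwt/wt, 7.22, 8.12 and 8.9 in GRD/D and 36.6, 35.9 and 31 in GRko/ko, with 6.14, 5.66 and 4.96 in run 2 GRwt/wt and 13.2, 10.5 and 9.73 in GRL/L. The Dex libraries held 0.358, 0.482 and 0.547 CPM in GRD+L/D+L, 2.33, 2.45 and 1.87 in run 1 GRwt/wt, 6.55, 4.38 and 6.57 in GRD/D, 32.9, 37.9 and 36.2 in GRko/ko, 3.69, 3.69 and 3.17 in run 2 GRwt/wt and 5.29, 6.45 and 7.74 in GRL/L. The Dex values lay below all vehicle values in GRD+L/D+L, GRD/D, run 2 GRwt/wt and GRL/L, and overlapped with them in the other groups.

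Spi1 was among the least abundant lineage genes, at 0.38, 0.55 and 0.393 CPM in vehicle-treated GRD+L/D+L, 2.42, 3.27 and 2.13 in run 1 GRwt/wt, 7.54, 8.17 and 6.6 in GRD/D, 46.5, 44 and 49.5 in GRko/ko, 4.77, 3.4 and 4.11 in run 2 GRwt/wt and 12, 8.3 and 9.33 in GRL/L. With Dex it stood at 0.716, 0.362 and 0.121 CPM in GRD+L/D+L, 1.62, 1.61 and 2.89 in run 1 GRwt/wt, 5.38, 7.62 and 7.39 in GRD/D, 47.9, 45.6 and 46.5 in GRko/ko, 3.6, 4.17 and 2.73 in run 2 GRwt/wt and 5.9, 6.87 and 7.39 in GRL/L. The Dex libraries were below every vehicle library in GRL/L alone.

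The comparison of mutant with GRwt/wt cultures under vehicle asks how the content of these transcripts differs between the genotypes before Dex is given. It was tested across 15489 genes with edgeR's quasi-likelihood test, with the run as a term in the model and Benjamini-Hochberg adjustment. A gene passed at an adjusted p of at most 0.05. Each mutant came from a single run, so its genotype and the preparation of its cultures cannot be told apart. The p-values rest on the spread between libraries of a group. Between 2 libraries of a group, the median squared difference over genes was 1.41 to 7.24 times that of counting noise. Whether this spread holds the differences between mice was not tested. Between the runs, the summed vehicle level of GRwt/wt alone differed by a factor of 2.21. In GRD/D, 33 of the 35 genes were higher than in GRwt/wt, against 7.27% of all genes tested, and 31 were at least 2-fold higher, where 2.54% of all genes passed that limit in either direction. The median log2 fold change of the set was 1.55 beside 0.01 over all genes, and 31 genes lay within 0.5 of that median, so that the set was raised nearly evenly. Lcp1, an actin-bundling protein of leukocytes, led by adjusted p, with a log2 fold change of 1.79 ± 0.12 (SE, n = 3 against 6) and an adjusted p of 1.98e-13 from edgeR. It was followed by the scavenger receptor Msr1 (1.70 ± 0.12, adjusted p of 9.89e-13) and the lysosomal glycoprotein Cd68 (1.52 ± 0.11, adjusted p of 2.3e-12). Aif1 and Clec7a did not pass, with log2 fold changes of 0.15 and 0.57.

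In GRL/L, 32 genes were higher than in GRwt/wt, against 7.56% of all genes, and 15 were at least 2-fold higher, where 1.32% of all genes passed in either direction. The median log2 fold change was 0.85, beside 0.01 over all genes. Csf1r led with a log2 fold change of 1.14 ± 0.10 and an adjusted p of 7.2e-10 in edgeR, ahead of Lcp1 at 1.07 ± 0.10 and Cd68 at 1.00 ± 0.10. Cybb, Aif1 and Clec7a did not pass, with log2 fold changes of 0.64, 0.47 and -0.21.

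In GRko/ko, all 35 genes were higher than in GRwt/wt and all were at least 2-fold higher. In this genotype 25.8% of all genes were higher and 14.6% passed the 2-fold limit in either direction. The median log2 fold change was 3.75, beside 0.02 over all genes. Apobec1, an RNA-editing enzyme, had the smallest adjusted p, with a log2 fold change of 4.14 ± 0.08 and an adjusted p of 1.27e-29 in edgeR, followed by Csf1r at 4.56 ± 0.10 and the lipopolysaccharide co-receptor Cd14 at 4.14 ± 0.10. The increase was uneven, since only 20 genes lay within 0.5 of the median. The extremes were the chemokine Ccl3 at 1.67 and the fractalkine receptor Cx3cr1 at 6.23. For Cx3cr1 the value ran from 5.95 to 6.97 over the alternatives tried. Relative to 1000 counts of the other members, Csf1r took 66.1 to 69.7 counts in the GRko/ko vehicle libraries and 27.3 to 33.5 in the run 1 GRwt/wt and GRD/D libraries, C1qb took 45.6 to 48.1 against 20.3 to 28, and Cx3cr1 22.7 to 24.3 against 1.9 to 4.27, while Lyz2 took 479.5 to 519.1 against 580.8 to 673.9. The GRD+L/D+L vehicle libraries overlapped with those of GRko/ko for Csf1r, at 58.7 to 73.5, and Lyz2, at 475.1 to 516.9, but not for C1qb, at 10.4 to 13.9, or Cx3cr1, at 0 to 4.72.

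In GRD+L/D+L, 33 genes were lower than in GRwt/wt, against 18% of all genes, and 32 were at least 2-fold lower, where 5.91% of all genes passed in either direction. The median log2 fold change was -3.06, beside -0.01 over all genes, and 15 genes lay within 0.5 of it. Lyz2 fell by 2.89 ± 0.16 on the log2 scale with an adjusted p of 1.8e-16 in edgeR, Mpeg1, a pore-forming protein of phagocytes, by 3.22 ± 0.20 and Msr1 by 2.92 ± 0.22. Mertk, a receptor for the uptake of dying cells, and Aif1, a calcium-binding protein, did not pass, with log2 fold changes of 0.11 ± 0.19 and -0.42 ± 0.24. Mertk was read at 5.63, 5.13 and 3.99 CPM in these libraries and at 3.97, 7.26 and 5.86 CPM in run 1 GRwt/wt. The model fits 1 run effect to the vehicle and Dex libraries together. A fitted sign can therefore differ from that of the run 1 means, as it did for Mertk. Ccl3 had 1 count in the 3 GRD+L/D+L vehicle libraries together, so no fold is given for it.

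The GRwt/wt cultures were sequenced in both runs, which allowed the runs to be compared within one genotype. In the model with a term for each group, 26 genes were higher in run 2 than in run 1 under vehicle and 1 was lower, where 40.2% and 32.2% of all genes were higher and lower. A change of at least 2-fold was found for 16 of the genes and for 22.8% of all genes. The set's median log2 fold change was 0.80 against 0.09 over all genes, and the genes did not move as one. Apobec1 (1.45 ± 0.11), Msr1 (1.57 ± 0.13) and Cd14 (1.48 ± 0.13) had the smallest adjusted p, the lowest being 5.3e-14 in edgeR. Fcgr1, the high-affinity IgG receptor, had the highest fold at 2.58 ± 0.30, whereas Cybb, the catalytic subunit of the phagocyte oxidase, was lower in run 2 by 1.56 ± 0.27 on the log2 scale. Cybb was read at 1.05, 0.687 and 0.732 CPM in run 2 GRwt/wt and 1.26, 1.12 and 1.18 CPM in GRL/L, against 2.17, 2.75 and 1.46 CPM in run 1 GRwt/wt. The complement genes C1qa, C1qb and C1qc did not pass, with log2 fold changes of 0.20, -0.14 and -0.21. Culture and sequencing run cannot be told apart here, and the order of levels across the runs is therefore a description and not a difference between genotypes.

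A second list of 40 macrophage genes, none of them in the first, gave the same direction for most genes. Of these, 35 were higher in GRD/D (7.27% of all genes), 33 in GRL/L (7.56%) and 38 in GRko/ko (25.8%) than in GRwt/wt, and 37 were lower in GRD+L/D+L (18%), with median log2 fold changes of 1.53, 0.96, 3.86 and -2.51. Their summed level was 6.93 times as high in GRko/ko as in GRD+L/D+L, against 82.1 for the 36 genes. A sum gives most weight to the abundant genes, whereas the medians above give each gene the same weight. Among 9 growth factors and attractants of macrophages, Csf1, the ligand of Csf1r, was abundant in all groups, with group means from 494.9 to 1663 CPM, and was lower in GRko/ko than in GRwt/wt by 1.10 on the log2 scale. The chemokine Cxcl12 was higher in GRko/ko, with a log2 fold change of 5.21 ± 0.12, and averaged 618.5 CPM there against 12.4 CPM in run 1 GRwt/wt.

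The comparison of Dex with vehicle asks which of these transcripts respond to the ligand within cultures of one genotype. As a whole the set moved little, and most in GRL/L, where the median log2 fold change was -0.17 and 26 of the 35 tested genes were below 0. The ratio of the summed level with Dex to that with vehicle was 0.957 and 0.941 in GRwt/wt of run 1 and run 2, 1.03 in GRD/D, 0.886 in GRL/L, 0.977 in GRD+L/D+L and 0.965 in GRko/ko. Single genes passed in both directions, 14 of them in at least 1 genotype. A share of all genes passing in at least 1 genotype was not computed. The share of all genes that passed is given for each genotype below, and in GRwt/wt 16.2% rose and 17.4% fell.

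In GRwt/wt, 5 genes rose and 5 fell with Dex, where 16.2% of all genes rose and 17.4% fell. Among the tested genes of the set, the share that passed was thus below that of all genes in both directions. The change was at least 2-fold for 2 of them, against 3.44% of all genes, and the median log2 fold change of the set was -0.07. Mertk, Mrc1, C1qa, C1qb and Ms4a6d rose, and Cx3cr1, Lcp1, Ptprc, Msr1 and Cd14 fell. C1qa, C1qb and the mannose receptor Mrc1 thus moved opposite to Lcp1 and Ptprc in the same libraries. Lyz2, Csf1r, Adgre1 and Spi1 did not pass, with log2 fold changes of -0.12, -0.14, -0.07 and -0.22. Taken by run, 3 of the genes passed in run 1 (Mertk and Mrc1 up, Lcp1 down), where 7.74% of all genes rose and 6.2% fell, and 10 passed in run 2 (5 up and 5 down), where 14.9% rose and 16.7% fell.

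In GRL/L, 3 genes rose (Mertk, Mrc1 and Ms4a6d) and 8 fell (Cx3cr1, Lcp1, Ptprc, Fcgr1, Spi1, Msr1, Csf1r and Cd14), where 8.12% of all genes rose and 9.57% fell. The change was at least 2-fold for 2, against 2.54% of all genes. In these cultures the defining markers together also went from 453.5 to 543.2 CPM with vehicle to 348.6 to 470.6 CPM with Dex with Dex replicate 1 the lowest, and the part of this in the single-gene calls was not tested beyond the scaling that follows. When libraries were scaled to the summed count of the defining markers in place of the whole library, which moved the median log2 fold change of all genes in GRL/L to 0.17, 4 genes rose (with C1qb added) and 3 fell (Cx3cr1, Lcp1 and Ptprc). Under this scaling Csf1r (-0.20), Spi1 (-0.35), Fcgr1 (-0.54), Msr1 (-0.24) and Cd14 (-0.15) did not pass, and the SE of Fcgr1 went from 0.15 to 0.22. Csf1r, Spi1, Ptprc, Cx3cr1 and C1qb are themselves among the defining markers.

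In GRD/D, 3 genes rose (Ccl3, Mertk and Ms4a6d) and 2 fell (Cx3cr1 and Lcp1), where 4.79% of all genes rose and 5.34% fell. The change was at least 2-fold for 2 of them, against 0.936% of all genes. In GRD+L/D+L none passed in edgeR or DESeq2, with 1 gene at an unadjusted p under 0.05, and 4% of all genes passed. In GRko/ko none passed in either tool, none had an unadjusted p under 0.05, and 0% of all genes passed, with 787 genes at an unadjusted p under 0.05 and 1 gene called by DESeq2. The log2 fold changes of 34 of the 35 genes lay within 0.25 of 0 in GRko/ko, the cultures with the highest levels of these transcripts and thus the most counts, whereas in GRD+L/D+L, with few counts, the standard errors ran from 0.17 to 1.44 on the log2 scale, so that changes of the size found in GRwt/wt were not detectable for most genes.

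By role, none of the 5 lysosomal and endosomal genes (Lyz2, Cd68, Ctss, Laptm5 and Mpeg1) passed in GRwt/wt or GRL/L. Their median log2 fold changes were -0.12 in GRwt/wt and -0.23 in GRL/L. Among the 5 Fc receptor and adaptor genes, Fcgr1 alone passed, and only in GRL/L, while Fcgr3, Fcer1g, Tyrobp and Trem2 lay between -0.30 and 0.05 in both. Among the 5 tested genes of pattern recognition and scavenging, 2 rose and 2 fell in each of these genotypes. Over all genes, 16.2% rose and 17.4% fell in GRwt/wt, and 8.12% and 9.57% in GRL/L. With 5 genes a role, such counts are too small to tell the roles apart.

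**Figure D3:**
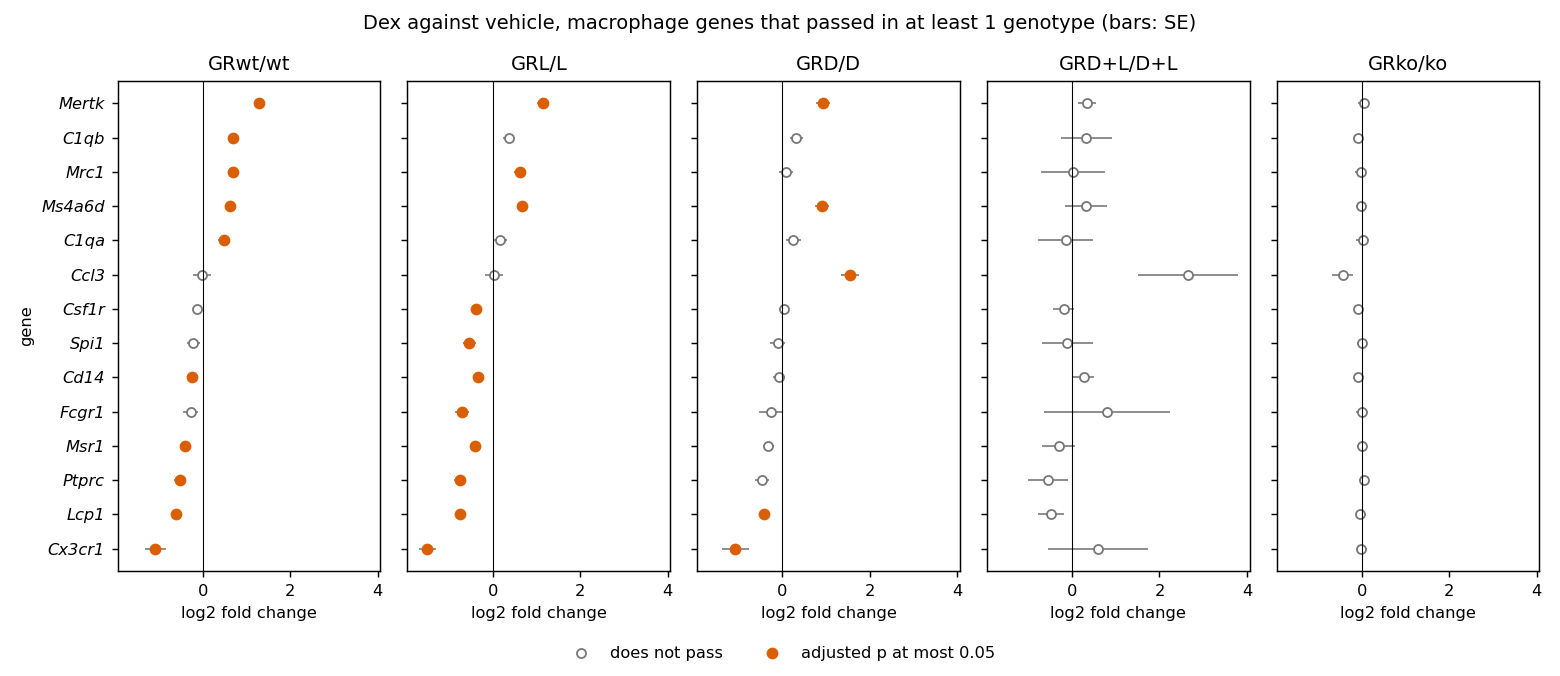
Log2 fold change of Dex against vehicle for the 14 macrophage genes that passed in at least 1 genotype, ordered by their value in GRwt/wt, with 1 panel a genotype. Filled orange points passed at an adjusted p of at most 0.05, open points did not, and bars are standard errors. Mertk and Cx3cr1 are filled in the 3 left panels, Ccl3 is filled in GRD/D only, and no point is filled in GRD+L/D+L or GRko/ko.

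The genes with the smallest adjusted p for Dex are Mertk, Cx3cr1 and Ccl3. The 250 bases before their transcription start are shown to set the start of each responding gene beside its response, taken from RefSeq on GRCm38.p6 and written 5′ to 3′ on the strand of the gene, for Mertk at chr2:128698665-128698914 on the plus strand, for Cx3cr1 at chr9:120068297-120068546 on the minus strand and for Ccl3 at chr11:83649379-83649628 on the minus strand. Capitals mark matches on either strand to GAGGAA, the core bound by PU.1, or to ACANNNTGT, the core of the palindrome bound by GR dimers.
Mertk: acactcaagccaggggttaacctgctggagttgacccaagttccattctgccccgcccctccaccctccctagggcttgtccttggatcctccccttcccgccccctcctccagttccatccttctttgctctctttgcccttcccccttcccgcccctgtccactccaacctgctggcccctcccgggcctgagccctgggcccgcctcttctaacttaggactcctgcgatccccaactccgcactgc
Cx3cr1: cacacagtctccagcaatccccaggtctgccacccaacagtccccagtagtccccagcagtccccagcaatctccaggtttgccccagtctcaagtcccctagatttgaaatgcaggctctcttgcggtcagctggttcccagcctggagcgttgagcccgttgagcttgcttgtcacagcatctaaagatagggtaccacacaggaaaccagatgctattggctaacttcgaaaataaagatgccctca
Ccl3: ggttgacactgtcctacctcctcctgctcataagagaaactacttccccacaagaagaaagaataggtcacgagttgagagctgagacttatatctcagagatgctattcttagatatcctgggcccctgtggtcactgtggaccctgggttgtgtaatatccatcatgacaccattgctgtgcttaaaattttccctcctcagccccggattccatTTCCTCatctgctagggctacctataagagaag
Ccl3 held 1 match to GAGGAA, which reads as its reverse complement on the strand shown, and no other match was found in these windows. C1qa and Tyrobp had no entry. A promoter entry was found for 27 of the 36 genes, with 33 starts in all. GAGGAA was in 17 of these 33 windows of 250 bases and in 23.3% of the 32851 windows of all genes, and ACANNNTGT in 5 of 33 and in 5.84% of all. The match to ACANNNTGT fell in Lyz2, Fcgr3, Ctss and Ms4a7, none of which passed the Dex test. A match is a description of letters and not a measured binding site.

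Mertk had the smallest adjusted p of the set. In run 2 GRwt/wt it went from 9.69, 8.85 and 9.27 CPM with vehicle to 22.4, 27.9 and 29.2 CPM with Dex, and in run 1 from 3.97, 7.26 and 5.86 to 8.83, 9.45 and 9.7 CPM. In GRL/L it went from 15.3, 14.6 and 12.1 to 28.3, 30.4 and 32.9 CPM and in GRD/D from 8.05, 8.12 and 7.33 to 15.3, 13.7 and 15.2 CPM. All Dex libraries of these 4 groups were above all of their vehicle libraries. The log2 fold change was 1.29 ± 0.11 in GRwt/wt (adjusted p of 4.86e-12, edgeR), 0.76 ± 0.15 and 1.56 ± 0.11 in run 1 and run 2 alone, 1.14 ± 0.13 in GRL/L and 0.94 ± 0.16 in GRD/D. In GRD+L/D+L it went from 5.63, 5.13 and 3.99 to 5.61, 6.57 and 6.2 CPM and in GRko/ko from 22.9, 23.6 and 21.7 to 20.7, 25.1 and 24.6 CPM, neither of which passed. Of the 36 genes, Mertk was the one whose level in GRD+L/D+L came closest to that in GRwt/wt, so that part of its counts was read in cultures almost without the other transcripts.

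Mrc1, the mannose receptor, went from 21.9, 23 and 20.6 to 34.2, 35.1 and 34.4 CPM in run 2 GRwt/wt and from 44.5, 36.9 and 37.8 to 50, 63.2 and 68.1 CPM in GRL/L, without overlap in either. In run 1 GRwt/wt it went from 5.52, 12 and 6.1 to 10, 8.67 and 16.6 CPM, where vehicle replicate 2 lay among the Dex libraries. The log2 fold change was 0.69 ± 0.12 in GRwt/wt (adjusted p of 1.44e-05, edgeR) and 0.63 ± 0.13 in GRL/L, with 0.64 ± 0.21 and 0.71 ± 0.14 in the GRwt/wt cultures of run 1 and run 2. In GRD/D, Mrc1 did not pass, at 0.09 on the log2 scale, and went from 20.6, 23.3 and 22.1 to 19.5, 24.8 and 25.3 CPM.

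C1qa and C1qb encode chains of C1q, which starts the classical complement pathway and is made by macrophages. C1qb went from 11.6, 11.8 and 11.2 to 20.7, 20.9 and 19.1 CPM in run 2 GRwt/wt and from 8.56, 15.6 and 8.72 to 11.6, 11.1 and 21.1 CPM in run 1. Per 1000 counts of the other members, C1qb went from between 12.3 and 13 to between 23.5 and 24.5 in run 2 and from between 24.6 and 28 to between 32.5 and 42.5 in run 1, and in GRL/L from between 15.9 and 16.9 to between 23.1 and 24.5, without overlap in any of these groups. Its log2 fold change in GRwt/wt was 0.69 ± 0.12 (adjusted p of 2.31e-05, edgeR), with 0.86 ± 0.15 in run 2 and 0.47 ± 0.18 in run 1, of which the latter did not pass. C1qa rose by 0.48 ± 0.13 on the log2 scale, and C1qc, at 0.26, did not pass. In GRL/L and GRD/D no C1q chain passed, and the log2 fold changes of C1qb were 0.37 and 0.32. C1qa went from 24.9, 24.1 and 21.2 to 39, 34.7 and 29.8 CPM in run 2 GRwt/wt, without overlap, and from 14.6, 26.2 and 12.4 to 16.6, 17.3 and 29.5 CPM in run 1, with overlap.

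Ms4a6d, a membrane protein of the MS4A family, went from 9.11, 9.9 and 7.69 to 14.4, 14.1 and 12.9 CPM in run 2 GRwt/wt, from 15.6, 14.3 and 13.1 to 19.3, 24.6 and 23.7 CPM in GRL/L and from 8.24, 7.9 and 6.44 to 13.8, 13.8 and 14 CPM in GRD/D. The Dex libraries lay above the vehicle libraries in all 3 groups. In run 1 GRwt/wt, values of 3.17, 4.91 and 1.59 CPM with vehicle and 3.47, 3.71 and 5.61 CPM with Dex overlapped. The log2 fold changes were 0.62 ± 0.12 in GRwt/wt, 0.67 ± 0.12 in GRL/L and 0.91 ± 0.15 in GRD/D, with adjusted p of 5.56e-05, 7.51e-05 and 6.67e-05 in edgeR. Its relative Ms4a7 did not pass in any genotype.

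Among the genes that fell, Cx3cr1, the receptor for fractalkine, changed most. It went from 5.94, 3.88 and 4.27 to 1.49, 1.5 and 1.45 CPM in run 2 GRwt/wt, from 14.7, 13.1 and 13 to 3.88, 5.34 and 5.12 CPM in GRL/L and from 5.17, 3.92 and 4.92 to 2.35, 1.98 and 2.21 CPM in GRD/D, without overlap. In run 1 GRwt/wt it did not fall, at 0.869, 1.37 and 0.61 CPM with vehicle and 0.433, 1.44 and 1.99 CPM with Dex. The log2 fold changes were -1.08 ± 0.24 in GRwt/wt, -1.62 ± 0.22 in run 2 and 0.47 ± 0.38 in run 1 alone, -1.49 ± 0.19 in GRL/L (adjusted p of 1.18e-07, edgeR) and -1.07 ± 0.30 in GRD/D. With a Dex effect for each run in the model, the mean effect over both runs in GRwt/wt was -0.57 with an adjusted p of 0.0505 in edgeR, so that the call for GRwt/wt was lost. The difference between the runs itself passed, at -2.10 ± 0.44 with an adjusted p of 0.00136, as did that for Mertk at 0.80 ± 0.19 with an adjusted p of 0.00444. These were the 2 genes of the set that passed this test, which 7.09% of all genes passed. In GRko/ko, where Cx3cr1 was most abundant, it went from 124, 122 and 127 to 117, 126 and 128 CPM.

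Lcp1 fell in GRwt/wt, GRL/L and GRD/D. It went from 44, 40 and 39.6 to 23.2, 25.4 and 26.6 CPM in run 2 GRwt/wt, from 99.8, 74.6 and 81.9 to 39.8, 56.6 and 54.3 CPM in GRL/L and from 56.1, 60.8 and 55 to 39.2, 41.5 and 45.4 CPM in GRD/D. In run 1 GRwt/wt, 13.7, 21.1 and 13.8 CPM became 8.94, 9.45 and 13.9 CPM, with Dex replicate 3 just above the 2 lower vehicle libraries. The log2 fold changes were -0.62 ± 0.09 in GRwt/wt (adjusted p of 1.55e-06, edgeR), -0.54 ± 0.16 and -0.67 ± 0.12 in run 1 and run 2, -0.75 ± 0.11 in GRL/L and -0.43 ± 0.12 in GRD/D. The call in GRD/D was lost without GRD/D vehicle replicate 2 (-0.39) or Dex replicate 1 (-0.38) or 2 (-0.42), and that of Cx3cr1 in GRD/D without Dex replicate 2 (-1.005) or 3 (-1.08). The call of Cx3cr1 in GRD/D was also lost in DESeq2 (-1.07, adjusted p of 0.0503) and with only the compared genotypes in the fit (-1.07, adjusted p of 0.0952), and that of Lcp1 in GRD/D with libraries scaled to the defining markers (-0.57, adjusted p of 0.071).

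Ptprc fell by 0.52 ± 0.13 on the log2 scale in GRwt/wt (adjusted p of 0.00209, edgeR) and by 0.75 ± 0.13 in GRL/L, and did not pass in GRD/D, at -0.46 with an adjusted p of 0.056. Msr1 fell by 0.41 ± 0.09 in GRwt/wt and by 0.41 ± 0.10 in GRL/L. It went from 44, 46.8 and 42.3 to 32.2, 33.3 and 30.4 CPM in run 2 GRwt/wt and from 12.8, 16.6 and 9.39 to 7.69, 8.97 and 11.8 CPM in run 1. In GRL/L, Fcgr1 went from 5.05, 4.78 and 5 to 2.5, 3.53 and 2.97 CPM, and stood at 2.42, 3.15 and 2.4 with vehicle and 2.16, 1.82 and 2.05 CPM with Dex in run 2 GRwt/wt. In GRL/L, Fcgr1 fell by 0.70 ± 0.15, Spi1 by 0.53 ± 0.14, Csf1r by 0.37 ± 0.10 and Cd14 by 0.34 ± 0.10, all of which were among the calls lost when libraries were scaled to the defining markers. The calls of Spi1, Csf1r, Msr1 and Cd14 in GRL/L were each also lost without GRL/L vehicle replicate 1 (-0.36, -0.32, -0.31 and -0.26) and without GRL/L Dex replicate 1 (-0.44, -0.26, -0.27 and -0.30), and that of Cd14 without Dex replicate 2 (-0.31). In GRwt/wt, Cd14 had a log2 fold change of -0.25 with an adjusted p of 0.0327 in edgeR, and did not pass without any one of vehicle replicates 2, 4 or 5 or Dex replicates 5 or 6, when it lay between -0.25 and -0.16.

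Ccl3, a chemokine that attracts leukocytes, followed a course of its own. In GRD/D it went from 2.17, 2.28 and 2.56 to 5.99, 7.32 and 6.95 CPM, a log2 fold change of 1.54 ± 0.20 with an adjusted p of 7.68e-07 in edgeR. In run 1 GRwt/wt it stood at 0.558, 1.44 and 0.488 CPM with vehicle and 0.542, 0.658 and 0.68 CPM with Dex, in run 2 at 1.25, 1.54 and 1.46 and at 1.95, 1.38 and 1.12 CPM, and in GRL/L at 3.08, 2.06 and 2.28 and at 1.82, 3.25 and 2.46 CPM, with overlap in each. In GRko/ko it was at 2.5, 2.41 and 2.47 CPM with vehicle and 1.61, 1.87 and 1.99 CPM with Dex, which did not overlap and did not pass, at -0.44 ± 0.24. In GRD+L/D+L it had 0, 0 and 1 counts with vehicle and 3, 2 and 3 with Dex, also higher with Dex in every library, which did not pass (adjusted p of 0.271 in edgeR).

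**Figure D4:**
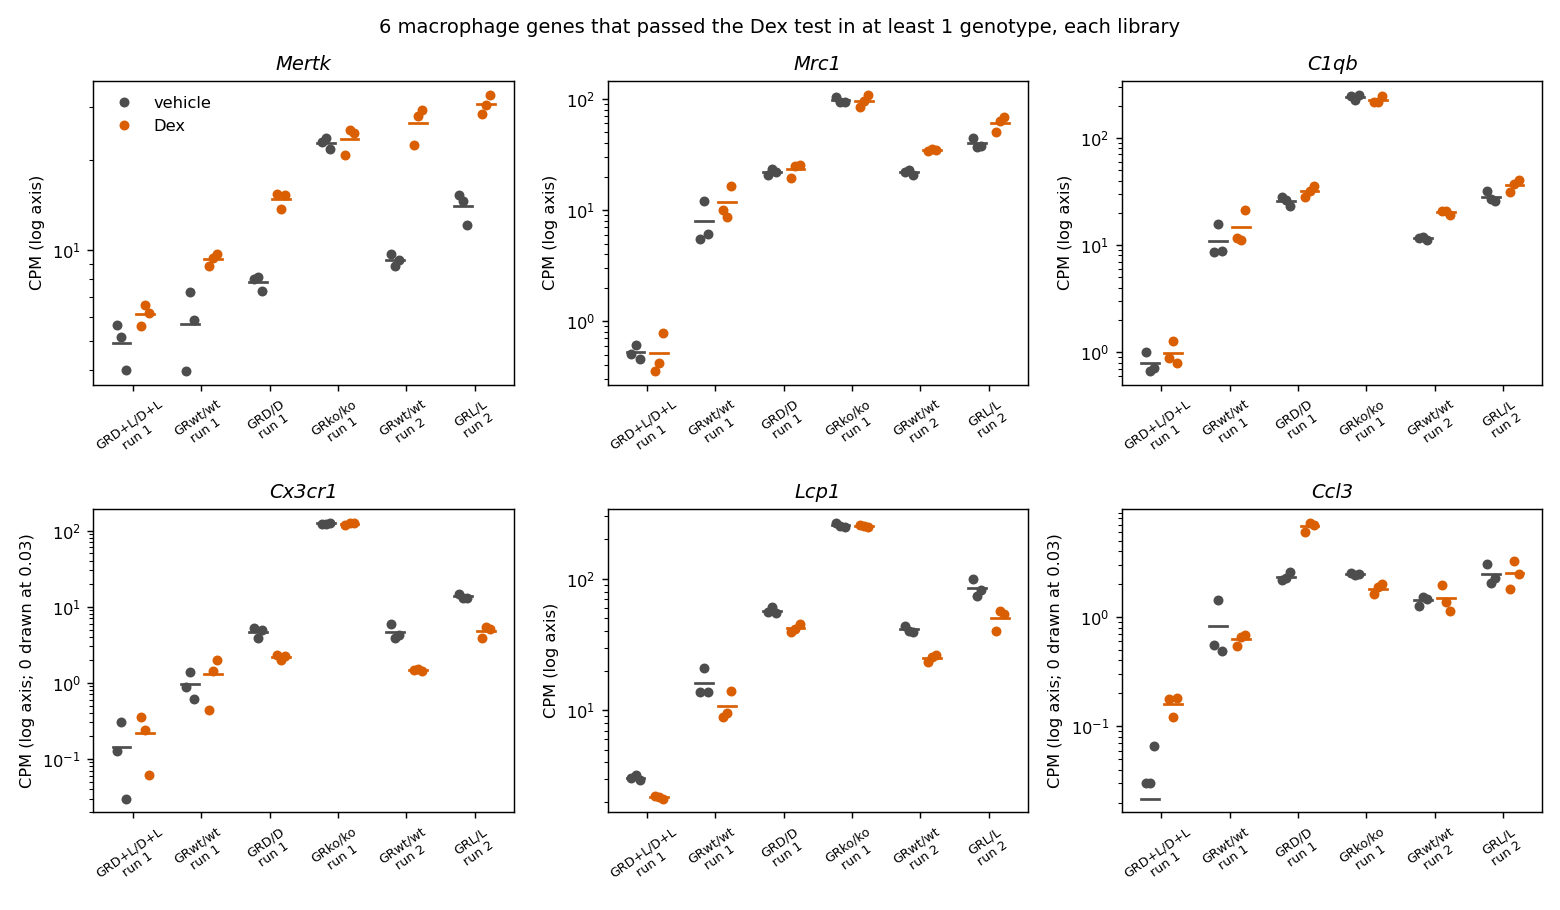
CPM (log axis) of Mertk, Mrc1, C1qb, Cx3cr1, Lcp1 and Ccl3 in each library by genotype and run, grey for vehicle and orange for Dex, with bars at group means and values of 0 drawn at 0.03. The Dex points lie above the vehicle points for Mertk in 4 groups, below them for Cx3cr1 in 3 groups, and above them for Ccl3 in GRD/D.

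Whether the responses differ between genotypes was tested by the difference of the Dex effect in each mutant from that in GRwt/wt. In GRko/ko, 8 genes differed from GRwt/wt, against 14.9% of all genes, and they were 8 of the 10 that responded in GRwt/wt (Mertk, Mrc1, C1qb, Ms4a6d, Cx3cr1, Lcp1, Ptprc and Msr1), each with a smaller effect in GRko/ko. Set against the run 1 GRwt/wt cultures alone, which were sequenced with GRko/ko, only Mertk passed, at -0.72 with an adjusted p of 0.00827, and the difference for Cx3cr1 changed sign to -0.49. In GRD/D, Ccl3 alone differed, by 1.57 ± 0.29 with an adjusted p of 0.00028 in edgeR, against 7.13% of all genes. In GRD+L/D+L, Mertk alone differed, by -0.95 ± 0.23 with an adjusted p of 0.00713, against 7.92% of all genes, and this call was lost when set against run 1 GRwt/wt alone (-0.42) or without GRD+L/D+L vehicle replicate 1 (-0.84, adjusted p of 0.0528). In GRL/L no gene differed in edgeR or DESeq2, none had an unadjusted p under 0.05, and 0.742% of all genes passed. The log2 differences from GRwt/wt in GRL/L lay between -0.42 and 0.40.

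The second list of 40 macrophage genes moved in both directions too, with 3 higher and 10 lower with Dex in GRwt/wt (16.2% and 17.4% of all genes), 4 higher and 13 lower in GRL/L (8.12% and 9.57%) and 2 higher and 4 lower in GRD/D (4.79% and 5.34%), while 1 (Cd33, by 2.46 ± 0.44) was higher in GRD+L/D+L. Tlr7, an endosomal receptor for RNA, rose in GRwt/wt and GRL/L by 1.24 ± 0.14 and 1.09 ± 0.14, and so did the oxidase subunit Ncf1, by 1.13 ± 0.10 and 0.84 ± 0.10. Cd180, a receptor related to the Toll-like receptors, had log2 fold changes of -0.91 ± 0.14 in GRwt/wt, -0.94 ± 0.13 in GRL/L and -0.65 ± 0.16 in GRD/D. Of 10 genes known to respond to glucocorticoids in macrophages, 5 were tested, and not all of these are described here. Mertk, Gas6 and Ms4a4a rose in GRwt/wt, GRL/L and GRD/D, where 16.2%, 8.12% and 4.79% of all genes rose. Gas6, a ligand of Mertk, rose by 0.93 ± 0.06, 0.90 ± 0.09 and 0.49 ± 0.09 in these genotypes. It averaged 1479 CPM with Dex in run 2 GRwt/wt against 641.3 CPM with vehicle, where Lyz2 was at 400.6 to 416.4 CPM. The summed vehicle level of the 10 genes did not follow the order of the macrophage set, at 1941 to 1990 CPM in GRD+L/D+L and 1273 to 1371 CPM in GRko/ko. Which cells Gas6 was read in was not tested. Ms4a4a rose by 2.20 ± 0.33, 3.03 ± 0.41 and 2.11 ± 0.42, from group means of 0.638 CPM or less.

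Of 8 genes of resident tissue macrophages, 6 were tested. Lyve1, a hyaluronan receptor, rose with Dex in GRwt/wt, GRL/L and GRD/D with log2 fold changes of 3.54, 4.58 and 2.42, but did not follow the vehicle order of the set, with a log2 fold change of -0.03 in GRko/ko against GRwt/wt. Summed over the 8 genes, GRL/L held 59.7 to 71.5 CPM with vehicle and 55.9 to 70.3 CPM with Dex. Lyve1 was thus a small part of that sum with vehicle, and its folds start from a low level. Stab1, a scavenger receptor, followed the vehicle order of the set, with 4.70 in GRko/ko and -3.57 in GRD+L/D+L. Of 9 growth factors and attractants, 8 were tested, with 1 higher and 5 lower with Dex in GRwt/wt (16.2% and 17.4% of all genes) and 1 higher and 4 lower in GRL/L (8.12% and 9.57%). Ccl2, an attractant of monocytes, had log2 fold changes of -1.90 ± 0.15 and -1.73 ± 0.20 in these genotypes, and Il34, a second ligand of Csf1r, rose by 0.66 ± 0.13 and 0.71 ± 0.18 there and by 1.46 ± 0.18 in GRD/D.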

How the data were processed

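RNA-seq of 36 libraries was analysed from the deposited table of raw read counts per gene. Per the submitters' processing notes the authors aligned reads with HISAT2 2.1.0 to mm10 and counted them with featureCounts 2.0.0, and DESeq2 and FastQC are also named. The annotation release and strand setting are not given in the sources used here. CPM were computed as a gene's count over the library total, and library totals ranged from 15280166 to 28662608.

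Counts were fitted in R 4.3.3 with edgeR 4.0.16 (TMM scaling, filterByExpr, which kept 15489 genes, and the quasi-likelihood test) modelling each combination of genotype and treatment and adding the run, over all 36 libraries. The comparison of the runs and the Dex effect within a run came from a model with 12 terms, 1 per group. P-values were adjusted over all 15489 genes by the Benjamini-Hochberg method, and genes passed at 0.05. SE was the absolute log2 fold change over the square root of F. Procedures were tested on simulated counts. DESeq2 1.42.0 was used as an alternative.

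The 36 genes, the other lists and the tests were chosen with earlier results of these data known. Per-library values were given for Lyz2, Csf1r, Adgre1, Ptprc, Spi1 and the genes with the smallest adjusted p for Dex, the 3 with the smallest adjusted p were named in each vehicle comparison, and up to 3 genes with the smallest adjusted p or the highest level from other lists. Cd33, Cd180, Stab1, Il34 and the members given only to show which did not pass were named after their values were seen. Promoters came from RefSeq on GRCm38.p6. The study's methods describe cultures from 3 mice per genotype given either treatment, but the labels do not say that a replicate number marks a mouse, and same-numbered libraries did not deviate together, so they were not paired. One result of the second macrophage list is not reported here.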

Additional observations from a re-analysis of the deposited data

Results flagged for a closer look

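These results drew attention because the response to Dex differed between genotypes or runs in a test of the difference itself (edgeR's quasi-likelihood test, Benjamini-Hochberg adjustment over all genes). All values are differences of log2 fold changes with their SE. Relative to GRwt/wt, the Dex response in GRko/ko differed by -1.25 ± 0.17 for Mertk (adjusted p of 1.11e-06), C1qb by -0.78 ± 0.17 (0.00131), Mrc1 by -0.71 ± 0.17 (0.00361) and Ms4a6d by -0.64 ± 0.17 (0.00611). The difference was positive for Cx3cr1 by 1.07 ± 0.27 (adjusted p of 0.00431), Lcp1 by 0.59 ± 0.14 (0.00224), Ptprc by 0.56 ± 0.17 (0.0201) and Msr1 by 0.42 ± 0.14 (0.0347). The call of Msr1 was lost without any one of 8 libraries and that of Ptprc without any one of 4. That of Cx3cr1 was lost in DESeq2 (0.71, adjusted p of 0.345) and changed sign against GRwt/wt of the same run (-0.49). Against GRwt/wt of the same run, Mertk alone of the 8 passed.

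For Ccl3 the response in GRD/D exceeded that in GRwt/wt by 1.57 ± 0.29 (adjusted p of 0.00028), and all 3 GRD/D Dex libraries were above all 3 vehicle libraries. For Mertk the response in GRD+L/D+L differed from that in GRwt/wt by -0.95 ± 0.23 (adjusted p of 0.00713). This call was lost against GRwt/wt of the same run (-0.42, adjusted p of 0.491) and with scaling to the defining markers (-0.80, 0.115). It was also lost without GRD+L/D+L vehicle replicate 1 (-0.84, 0.0528).

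Between the GRwt/wt cultures of run 2 and run 1, the response differed by -2.10 ± 0.44 for Cx3cr1 (adjusted p of 0.00136) and by 0.80 ± 0.19 for Mertk (0.00444). Cx3cr1 was read at 0.433 to 1.99 CPM in run 1 GRwt/wt, the lowest level at which its response was tested apart from GRD+L/D+L.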

How the results depend on the processing

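Direction was followed gene by gene for Lyz2, Csf1r, Adgre1, Ptprc, Spi1 and the genes picked by smallest adjusted p. None of these that passed under vehicle changed direction in the alternatives tried. The counts are of genes that passed, and the cause of a change was not tested unless the alternative itself reduces the genes or the limit. With a limit of 2-fold added, 15 genes passed in GRL/L under vehicle and 16 between the runs, 2 each with Dex in GRwt/wt, GRD/D and GRL/L, and 0 and 2 for the difference in response of GRD+L/D+L and GRko/ko. Requiring 10 counts in every library, which left 14 of the genes, gave 14 in GRD/D, GRL/L and GRko/ko, 13 in GRD+L/D+L and 10 between the runs under vehicle, 6, 2 and 5 with Dex in GRwt/wt, GRD/D and GRL/L, and 0 and 4 for the difference of GRD/D and GRko/ko. Of the 11959 genes so kept, 1653, 1595, 5890, 4575 and 9218 passed in these vehicle comparisons, in that order. With Dex 4640, 1571 and 2357 of them passed, and 1071 and 2129 for the 2 differences. Without a filter 12 and 20 passed with Dex in GRD/D and GRL/L, and 5 and 1 for their difference from GRwt/wt. Among the 32584 genes then tested, 1508 and 2648 passed with Dex, and 1227 and 288 for the difference. Against GRwt/wt of the same run, the differences held for 2 genes in GRD/D, 0 in GRD+L/D+L and 1 in GRko/ko, and that for Cx3cr1 in GRko/ko reversed to -0.49 (adjusted p of 0.544). Over all genes, 509, 501 and 1314 passed for these differences in GRD/D, GRD+L/D+L and GRko/ko. Scaling to the defining markers gave 7 with Dex in GRL/L, and 0 and 3 for the difference of GRD+L/D+L and GRko/ko, where 905, 210 and 611 of all genes passed. Leaving out GRwt/wt vehicle replicate 2 and Dex replicate 3 together, chosen after seeing the data, gave 9 with Dex in GRD/D and 3 for its difference, where 1599 and 1267 of all genes passed. Over the defining markers alone the median log2 fold change was 1.17 in GRL/L, 4.11 in GRko/ko and 0.58 between the runs, and without the 3 genes with the most counts the summed level with Dex was 1.03 times that with vehicle in run 2 GRwt/wt.

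Leaving out each library in turn gave 32 to 33 genes in GRD/D, 28 to 33 in GRL/L, 32 to 33 in GRD+L/D+L, 35 to 35 in GRko/ko and 23 to 29 between the runs under vehicle. With Dex it gave 9 to 12 in GRwt/wt, 3 to 8 in GRD/D (3 without GRD/D Dex replicate 2, 8 without GRL/L Dex replicate 1), 8 to 14 in GRL/L and 0 to 0 in GRD+L/D+L and GRko/ko, and for the differences in response 1 to 2 in GRD/D, 0 to 0 in GRL/L, 0 to 1 in GRD+L/D+L and 6 to 8 in GRko/ko. The share of all genes that passed is not given for the fits with a library left out. Same-numbered vehicle and Dex libraries did not deviate together (18 correlations from -0.08 to 0.12, 1 above 0.1, and 7 of 18 vehicle libraries correlated best with their own number). With the replicate block 10 genes passed with Dex in GRwt/wt, 5 in GRD/D, 11 in GRL/L and 0 in GRD+L/D+L and GRko/ko, and 7 for the difference of GRko/ko. Over all genes, 4849, 1252, 2431, 500 and 0 passed with Dex in these genotypes, and 1937 for that difference.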
